A study of Homo sapiens with 5 samples.

Results

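Levels of 9 named long noncoding RNAs (lncRNAs) were followed in the human small cell lung cancer line NCI-H209. The genes were MALAT1, NEAT1, MIR210HG, MIR22HG, H19, MEG3, GAS5, TUG1 and PVT1, chosen by name among the 64837 entries of the deposited count files. Of the 9 names, 8 were paired with an identifier by the deposited name table, and MIR22HG was matched by the identifier that the GENCODE annotation gives it. The 9 names corresponded to 10 entries, because MIR210HG had 1 entry on the primary chromosome sequence and another on a patch sequence, which is an alternative stretch added to the genome build. NCI-H209 cells grown alone made up the control group (3 libraries), and NCI-H209 cells kept for 24 h beside human brain microvascular endothelial cells (HBMECs) made up the co-cultured group (2 libraries). Both groups were the same unmodified line, which was grown in RPMI-1640 with fetal bovine serum. In the co-cultured group the HBMECs sat in a Transwell insert, so that the cells shared medium through a porous membrane. The HBMECs had been cultured in RPMI-1640 with fetal bovine serum and Nu-serum. The study's methods do not state the medium during co-culture, and a difference in medium cannot be told apart from the co-culture. The RNA was depleted of ribosomal RNA and sequenced with a directional kit, which keeps lncRNAs with and without a poly(A) tail. The comparison asked which of these lncRNAs differed in abundance between co-cultured and control cells.

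LncRNAs are transcripts that carry no long open reading frame and act as RNA, or through small RNAs cut from them. MALAT1 and NEAT1 stay in the nucleus, MALAT1 in speckles rich in splicing factors and NEAT1 as the scaffold of paraspeckles. MIR210HG and MIR22HG are host genes of microRNAs, and the miR-210 locus is a classical target of hypoxia-inducible factor (HIF). H19 and MEG3 are imprinted genes, expressed from the maternal allele and paired with the paternally expressed genes IGF2 and DLK1. GAS5 carries snoRNAs in its introns, TUG1 is a broadly expressed lncRNA first described in the developing retina, and PVT1 is the neighbour of the MYC gene.

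The mature microRNAs encoded in 4 of the host genes are shown first, because each host transcript was measured here while the mature microRNA was not. They were taken from RefSeq (GRCh38.p14) and are written 5′ to 3′ with the seed, bases 2 to 8, in capitals.
hsa-miR-210-3p (MIR210HG): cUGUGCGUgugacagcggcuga
hsa-miR-22-3p (MIR22HG): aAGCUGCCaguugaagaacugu
hsa-miR-675-5p (H19): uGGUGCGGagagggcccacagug
hsa-miR-770-5p (MEG3): uCCAGUACcacgugucagggcca
None of these microRNAs shared a seed. The MIR210 hairpin (chr11:568089-568198, minus strand) had 0 bases within annotated exons of MIR210HG and thus lay in an intron. The MIR22 hairpin had 85 of 85 bases in an exon of MIR22HG, MIR675 had 73 of 73 in an exon of H19, and MIR770 had 98 of 98 in exons of MEG3. All 4 hairpin entries had 0 counts in every library. For MIR22, MIR675 and MIR770 this was set by the counting, since STAR's gene counting leaves out reads that fall on 2 genes. Their 0 thus tells nothing of their level. Mature microRNAs are in any case too short for libraries of this kind.

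The promoters of the 3 genes that passed the test of the co-culture are shown for comparison of their sequence, from 250 bases before to 50 bases after the RefSeq start (GRCh38.p14), in the direction of transcription. Capitals mark ACGTG and GCGTG, the core letters bound by HIF, searched on both strands.
MIR210HG promoter, chr11:568408-568707, minus strand: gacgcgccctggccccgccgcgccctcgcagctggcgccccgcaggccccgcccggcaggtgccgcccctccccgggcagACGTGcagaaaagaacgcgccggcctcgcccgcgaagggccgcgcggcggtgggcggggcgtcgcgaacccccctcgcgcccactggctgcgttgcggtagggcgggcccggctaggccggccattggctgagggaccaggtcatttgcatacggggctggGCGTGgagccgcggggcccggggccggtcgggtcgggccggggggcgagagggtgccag
H19 promoter, chr11:2001217-2001516, minus strand: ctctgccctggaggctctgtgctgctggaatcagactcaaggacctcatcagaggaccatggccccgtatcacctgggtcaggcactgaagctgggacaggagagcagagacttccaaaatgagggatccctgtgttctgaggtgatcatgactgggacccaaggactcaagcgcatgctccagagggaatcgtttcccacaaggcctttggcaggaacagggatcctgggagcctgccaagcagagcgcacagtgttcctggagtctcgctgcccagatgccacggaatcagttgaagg
TUG1 promoter, chr22:30969015-30969314, plus strand: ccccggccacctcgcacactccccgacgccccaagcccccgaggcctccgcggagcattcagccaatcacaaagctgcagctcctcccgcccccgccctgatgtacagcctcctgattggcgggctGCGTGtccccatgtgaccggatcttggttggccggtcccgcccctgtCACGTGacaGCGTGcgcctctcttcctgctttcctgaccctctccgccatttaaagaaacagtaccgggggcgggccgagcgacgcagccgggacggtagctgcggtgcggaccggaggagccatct
The MIR210HG promoter held 1 ACGTG and 1 GCGTG, whose first bases lay at -170 and -9 from the start. The TUG1 promoter held 2 ACGTG and 2 GCGTG, and its ACGTG matches overlap on the 2 strands as CACGTG. The H19 promoter held no match on either strand. Among 35116 promoter windows of the same length, 21.4% held ACGTG, 36.5% held GCGTG and 48.4% held at least 1 of them, so that a match in such a window is common and marks no binding site by itself. The share of G and C was 80% for MIR210HG, 57.7% for H19 and 67.7% for TUG1.

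The libraries held 15457071 to 19157348 counts on genes, at which 3 counts equal 0.157 to 0.194 CPM, the counts of a gene scaled to a fixed library total. A gene at or under 3 counts in every library was taken as at the floor. Reads outside annotated exons made up 47.4% to 51.2% of reads in the controls against 40.1% to 40.8% after co-culture, and unmapped reads 8.13% to 8.48% and 15.9% to 16.8%, respectively. Their part in the differences below was not tested. The summed level of 15 neuroendocrine markers was 2862 to 3694 CPM over the 5 libraries, whereas CHGA, a granule protein that is a defining marker, was listed at 0 counts in 4 libraries and 1 in the other. Some genes that most cells use were also listed at or near 0 (below, around MIR210HG and MIR22HG). Whether the same holds at CHGA was not tested, so its near absence from the counts is not read as absence from the cells. Of 17 endothelial markers, 7 were at the floor and 2 of those (MMRN1 and PLVAP) were at 0 throughout, and their summed level was 17.8 to 26.8 CPM in the controls against 22.4 to 23.2 CPM after co-culture. The summed level after co-culture thus lay within the control range, although the junction protein ESAM rose (3, 4 and 6 counts in control, 21 and 14 in co-cultured).

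Of the 9 lncRNAs, 7 passed the filter on low counts and were tested. MIR210HG and H19 were higher and TUG1 was lower in co-cultured cells by the quasi-likelihood test of edgeR, at a p under 0.05 after Benjamini-Hochberg adjustment for 20360 genes. The calls were 3 of 7, against a background of 33.4% of all genes tested, 18.4% higher and 15% lower. The share of called genes was thus near that of all genes. Without co-cultured replicate 1 a single lncRNA was called (H19), and without control replicate 1 there were 5 (MALAT1 and NEAT1 in addition). Control replicate 1 stood apart from the other controls, since the chi-square of its counts, divided by the degrees of freedom, was 17.9 and 18.1 against replicates 2 and 3 and 6.34 between those, and without it the calls over all genes rose from 6809 to 9897. By a criterion that reads the study's thresholds on the log2 scale and before adjustment (a log2 fold change beyond 1 in either direction and p under 0.05), a reading its methods do not spell out, 2 of 7 passed and were higher, MIR210HG and H19, against 10.5% of all genes, 5.44% higher and 5.01% lower. The median log2 fold change was -0.02 over the 7 lncRNAs and -0.03 over all genes. The replicates are not stated to be separate cultures, so p-values measure only the spread between these libraries. In bulk RNA, a change in the cells that hold a transcript and a change in RNA per cell cannot be told apart.

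**Figure D1:**
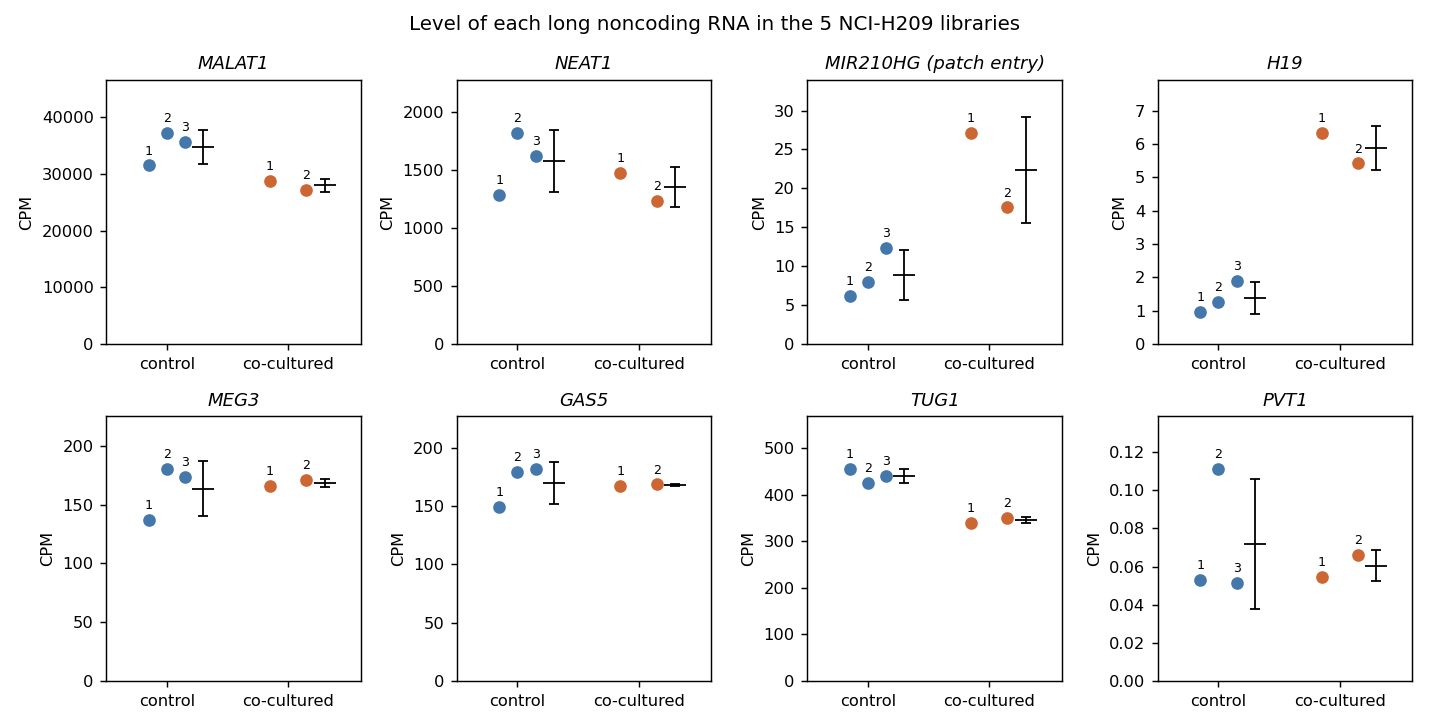
Level of 8 lncRNAs in CPM (vertical axes from 0, scaled per gene) in the 3 control and 2 co-cultured libraries; points are libraries with their replicate number, and the bar and whiskers are the mean and SD. Co-cultured libraries lie above all control libraries for MIR210HG (17.6 and 27.2 against 6.22 to 12.4 CPM) and H19, and below them for TUG1 and MALAT1, while PVT1 stays at 1 or 2 counts.

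MIR210HG, the host of miR-210, was higher in co-cultured NCI-H209 cells. Its counts were 117, 144 and 242 in the controls against 497 and 266 after co-culture. On the CPM scale the levels were 6.22, 7.96 and 12.4 in the controls (8.86 ± 3.18, SD, n = 3) and 27.2 and 17.6 after co-culture (22.4 ± 6.78, SD, n = 2). The groups did not overlap, with control replicate 3 the highest of its group, and the spread within each group was wide. Such separation in either direction was seen for 59.4% of all genes tested. The log2 fold change was 1.34 (SE 0.27, 95% interval 0.73 to 1.94), a 2.53-fold difference, and passed edgeR quasi-likelihood testing at an adjusted p of 0.00506. Without co-cultured replicate 1, the higher library, the log2 fold change was 0.99 and the adjusted p 0.0873. A fit without a co-cultured library leaves 1 library in that group, which is assumed to vary like the controls, and its p is read with that limit throughout. Reads on the opposite strand of the same entry were 2.42% to 10.6% of its reads in the controls against 0% to 0.80% after co-culture.

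All of these reads were counted on the patch entry of MIR210HG. The primary entry (chr11:565660-568457, minus strand, GENCODE 29 on GRCh38) had 1, 0 and 0 counts in the controls against 2 and 0 after co-culture. Summing both entries left the log2 fold change at 1.34. Of the 12 protein-coding genes within 100 kb of MIR210HG, 8 (66.7%) were at the floor in every library on the primary sequence, against 24.4% of 19969 protein-coding genes. HRAS, a signalling GTPase, had 0 counts in all libraries, and RNH1, a ribonuclease inhibitor that most cells make, had a single count. The patch entries held the reads of several of these genes: LRRC56 had 39 to 53 counts in the controls against 30 to 42 after co-culture. What split the reads between the entries was not tested, and the level of MIR210HG is therefore uncertain in absolute terms. No exon length was at hand for the patch entry, so its level was not set against other genes per length.

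**Figure D2:**
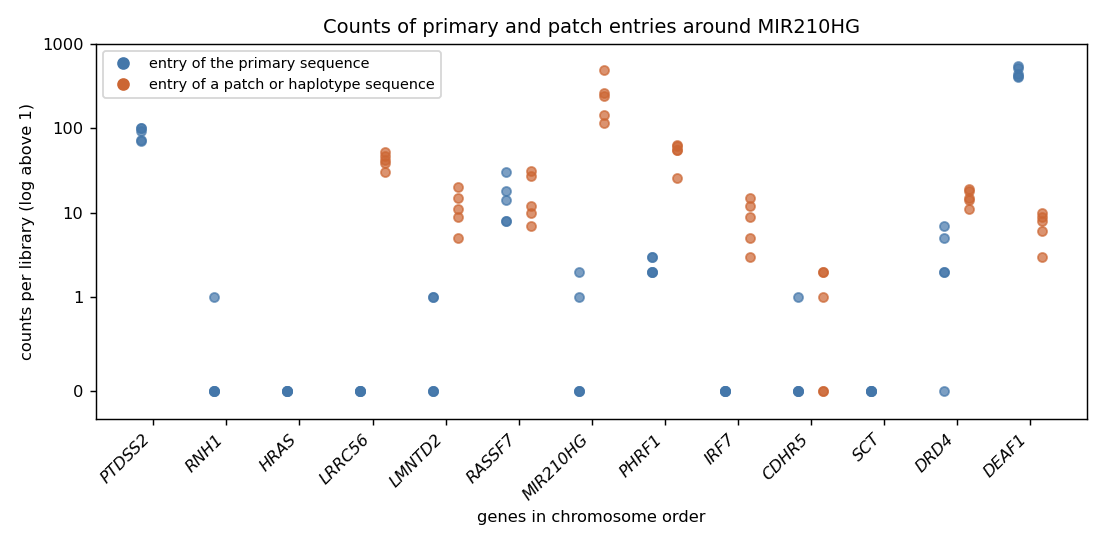
Counts per library (vertical axis, log scale above 1 and linear below) of the primary entries (blue) and patch or haplotype entries (orange) of MIR210HG and the protein-coding genes around it, in chromosome order, with 1 point per library. MIR210HG lies at 117 to 497 counts on its patch entry and at 0 to 2 on its primary entry, and HRAS lies at 0.

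RASSF7, a Ras-association domain gene whose annotated end lies 1639 bp from MIR210HG, was the nearest tested protein-coding gene on the side of lower coordinates. Its primary entry had 8, 14 and 8 counts in the controls against 30 and 18 after co-culture, and it rose by a log2 fold change of 1.41 (SE 0.40, edgeR, adjusted p = 0.0257). Its patch entry had 7, 10 and 12 counts against 27 and 31. Each entry was thus above all control libraries in either co-cultured library. DEAF1, a transcription factor gene 75776 bp away on the other side, had a log2 fold change of 0.23 (95% interval -0.08 to 0.54), and its groups overlapped.

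The genes whose profile was nearest to that of MIR210HG were AQP3, NDRG1 and NRN1. Likeness was the Euclidean distance between log2 CPM profiles over the 5 libraries, each centred on its mean, among 17222 genes with a mean of at least 1 CPM. AQP3, a channel for water and glycerol, lay at a distance of 0.0789, with 0.43, 0.55 and 0.97 CPM in the controls against 2.24 and 1.45 CPM after co-culture. NDRG1, a stress-responsive gene known as a HIF target, lay at 0.160, with 121.9, 164.9 and 234 CPM in the controls against 538.9 and 312.4 CPM after co-culture. NRN1, which encodes neuritin, lay at 0.186, with 32.5, 42.2 and 60.0 CPM in the controls against 151.3 and 99.8 CPM after co-culture. In all 3 genes, as in MIR210HG, control replicate 3 was the highest of its group and co-cultured replicate 1 the higher of its pair. These genes were picked for their likeness over the same 5 libraries, so their direction adds no separate evidence.

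Genes of the HIF response and listed targets of miR-210 were set beside MIR210HG. Of 16 HIF target genes, 15 were higher and 0 lower by edgeR (14 and 0 by DESeq2, 15 and 0 before adjustment), and the median log2 fold change was 1.54. VEGFA, the main angiogenic growth factor, rose by 1.59 on the log2 scale, DDIT4, an inhibitor of mTORC1, by 2.30, and EGLN1, an oxygen-sensing prolyl hydroxylase, by 1.504. ANKRD37 was the gene of the list that did not pass (0.71, adjusted p = 0.131). Of 15 tested targets of miR-210, 5 were higher (33.3%) and 0 lower by edgeR (5 and 0 by DESeq2, 7 and 0 before adjustment), with a median of 0.22. Among all protein-coding genes tested, 25.1% were higher and 15.9% lower. KCMF1, a ubiquitin ligase, rose by 0.40, the phosphatase PTPN1 by 0.37 and the cell cycle factor E2F3 by 0.51. ISCU, an iron-sulphur scaffold that is among the best known targets of miR-210, had a log2 fold change of -0.14 (95% interval -0.33 to 0.06). EFNA3, another listed target, rose by 1.15 (edgeR, adjusted p = 0.0456), with 15, 39 and 48 counts in the controls against 83 and 52 after co-culture. ISCU and EFNA3 were named after their values were seen. Without co-cultured replicate 1, 0 of the 15 miR-210 targets and 10 of the 16 HIF target genes were called, against 1 and 14 without co-cultured replicate 2. The miR-210 targets called were 3 without control replicate 2. The level of miR-210 itself was not measured.

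MIR22HG (chr17:1711493-1717174, minus strand), the host of miR-22, was listed at 0 counts in all 5 libraries and could not be tested. PRPF8, a core splicing factor that every cell uses, lies within 100 kb and had 4, 1 and 2 counts in the controls against 0 and 0 after co-culture. Of the 9 protein-coding genes within 100 kb, 4 (44.4%) were at the floor, against 24.4% of all protein-coding genes. The 0 of MIR22HG therefore gives no limit on its expression in NCI-H209. PITPNA and SMYD4, the nearest tested protein-coding genes, had log2 fold changes of 0.16 (95% interval -0.09 to 0.41) and 0.01 (-0.22 to 0.23), and the groups of each overlapped. Of 12 tested targets of miR-22, 4 were higher (33.3%) and 1 lower (8.33%), with a median of 0.28, against 25.1% higher and 15.9% lower among protein-coding genes. SIRT1, a deacetylase, rose by 1.02 on the log2 scale, CDKN1A, a cyclin-dependent kinase inhibitor, by 1.71 and CDK6, a kinase of the G1 phase, by 1.11. Without co-cultured replicate 1, 2 were higher and 0 lower, and without co-cultured replicate 2, 3 and 0.

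The other microRNA host genes moved in both directions. Of 60 named host genes, 27 were tested, of which 3 were higher (11.1%) and 6 lower (22.2%), and the median log2 fold change was -0.17. Among all genes tested 18.4% were higher and 15% lower, and among lncRNA genes 5.37% and 15.1%. The share called in either direction, 33.3%, was near the 33.4% of all genes. MIR17HG, the host of the miR-17-92 cluster, fell by 0.92 on the log2 scale (edgeR, adjusted p = 0.000254). MIR325HG rose by 1.37 and MIR2052HG fell by 0.69. These counts depend on single libraries, with 5 called without control replicate 2, 4 without control replicate 3, 2 without co-cultured replicate 1 and 3 without co-cultured replicate 2.

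H19, an imprinted lncRNA that is abundant in the embryo and low in most adult tissues, had the largest fold change of the 7 tested lncRNAs. Its counts were 18, 23 and 37 in the controls against 116 and 82 after co-culture. The levels were 0.96, 1.27 and 1.89 CPM in the controls (1.37 ± 0.48, SD, n = 3) and 6.34 and 5.42 CPM after co-culture (5.88 ± 0.65, SD, n = 2). Both co-cultured libraries were well above all control libraries, though the gene was low in either group. Its log2 fold change was 2.09 (SE 0.28, 95% interval 1.46 to 2.72), a 4.25-fold difference, and passed edgeR quasi-likelihood testing at an adjusted p of 0.00068. It kept its call under all 13 alternatives, from 1.89 to 2.40. Among the 13 is the sum of both MIR210HG entries, which leaves the counts of H19 as they were and is no check on it. Reads on the opposite strand of H19 were 0%, 23.3% and 9.76% of its reads in control and 0% in both co-cultured libraries.

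The genes beside H19 (chr11:1995176-2001470, minus strand) did not pass the test. IGF2, the growth factor gene that shares enhancers with H19 and is expressed from the other allele, had 8, 14 and 22 counts in the controls against 15 and 15 after co-culture. Its groups overlapped, and its log2 fold change was 0.21 with a 95% interval of -0.81 to 1.23, a wide range at this depth. MRPL23, a mitochondrial ribosomal protein gene, had 3.87 to 6.12 CPM in the controls against 6.23 and 6.61 CPM after co-culture. Its groups did not overlap, yet the log2 fold change of 0.33 had an interval of -0.15 to 0.81.

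MEG3 (chr14:100779410-100861031, plus strand), a maternally expressed lncRNA that is abundant in neural and endocrine tissue, showed no difference beyond the spread. Its levels were 136.8, 180.1 and 173.8 CPM in the controls (163.6 ± 23.4, SD, n = 3) and 166 and 171.2 CPM after co-culture (168.6 ± 3.70, SD, n = 2). Both co-cultured values lay within the control range. The fitted log2 fold change was 0.04 with a 95% interval of -0.22 to 0.30 (edgeR, adjusted p = 0.80). Its sign turned with upper-quartile normalization (-0.04). The lncRNA gene AL117190.1 shares 15272 exon bases with MEG3 on the same strand, and STAR's gene counting leaves out reads that fall on 2 genes, so that the count of MEG3 is a lower estimate. AL117190.1 had 64 to 72 counts in the controls against 35 to 60 after co-culture.

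DLK1, the paternally expressed Notch ligand next to MEG3, had 128, 79 and 68 counts in the controls against 74 and 60 after co-culture. Its log2 fold change was -0.29 (95% interval -0.92 to 0.35), with overlapping groups. PPP2R5C, a phosphatase subunit gene, was the nearest tested protein-coding gene on the other side, though 900767 bp away. It had a log2 fold change of -0.17 (95% interval -0.35 to 0.003). Of 17 other imprinted genes tested, IGF2 and DLK1 among them, 4 were higher (23.5%) and 1 lower (5.88%), with a median of 0.14. Among all genes tested, 18.4% were higher and 15% lower. The share called in either direction was 29.4%, near the 33.4% of all genes. GRB10, a receptor adaptor, rose by 1.42 on the log2 scale and MAGEL2, of the Prader-Willi region, by 1.32. MEST fell by 1.69. H19 thus rose while its partner IGF2, MEG3 and DLK1 did not pass the test, but the differences between these fold changes were not tested.

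MALAT1 had the highest level per length of all lncRNA genes and was lower in both co-cultured libraries without passing the test. It had 592133, 673780 and 695249 counts in the controls against 526088 and 411750 after co-culture, which is 3.09%, 3.89% and 3.64% of all gene counts in the controls against 2.78% and 2.66% after co-culture. The levels were 31480, 37260 and 35600 CPM in the controls (34780 ± 2972, SD, n = 3) and 28750 and 27200 CPM after co-culture (27980 ± 1100, SD, n = 2). The groups did not overlap, which on the lower side was seen for 30% of all genes tested. On the log2 scale the difference was -0.31 (SE 0.12, 95% interval -0.58 to -0.05), and missed the threshold (edgeR, adjusted p = 0.0666). Of 13 alternatives, 4 put it past the threshold and 9 did not, all with a lower level after co-culture. Among the 9 is the sum of both MIR210HG entries, which is no check on MALAT1. The adjusted p was 0.0151 with DESeq2, 0.0329 with upper-quartile normalization, 0.000518 with the filter of at least 1 count and 0.000192 without control replicate 1. It was 0.183 with the filter of 10 counts in every library, 0.253 without control replicate 2 and 0.33 without co-cultured replicate 2.

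NEAT1 (chr11:65422774-65445540, plus strand) lies beside MALAT1 (chr11:65497688-65506516, plus strand) and had overlapping groups. Its levels were 1289, 1825 and 1626 CPM in the controls (1580 ± 271, SD, n = 3) and 1476 and 1236 CPM after co-culture (1356 ± 170.4, SD, n = 2). Control replicate 1 lay between the co-cultured libraries. The log2 fold change was -0.22 with a 95% interval of -0.55 to 0.11 (edgeR, adjusted p = 0.276), and with a library left out it ran from -0.347 to -0.093. It was -0.345 without control replicate 1 (adjusted p = 0.00216), -0.102 without control replicate 2 (adjusted p = 0.651) and -0.093 without co-cultured replicate 2 (adjusted p = 0.783). FRMD8, the nearest tested protein-coding gene on the side of lower coordinates, had a log2 fold change of -0.26 (95% interval -0.55 to 0.03).

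Among genes for proteins of the 2 nuclear bodies that these lncRNAs mark, more were called lower than higher. Of 22 nuclear speckle proteins, 14 were lower (63.6%) and 1 higher (4.55%), and the median log2 fold change was -0.34, while 15% of all genes were lower. SRSF5 and SRSF2, splicing factors rich in serine and arginine, fell by 0.65 and 0.89 on the log2 scale, and SRSF9, of the same family, rose by 0.49. Of 19 paraspeckle proteins, 8 were lower (42.1%) and 1 higher (5.26%), with a median of -0.14. SFPQ, a core paraspeckle protein that binds NEAT1, fell by 0.82, RBMX by 0.71 and the cleavage factor CPSF6 by 0.58. SFPQ has the partners NONO (-0.47) and PSPC1 (-0.25), which also fell and were picked once their values were known. With co-cultured replicate 1 left out, 3 speckle and 6 paraspeckle proteins were lower, and with co-cultured replicate 2 left out, 3 and 4. Without control replicate 1, 3 speckle and 4 paraspeckle proteins were higher.

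GAS5 (chr1:173863900-173868882, minus strand), a host of box C/D snoRNAs whose spliced RNA is cleared by nonsense-mediated decay, did not differ beyond the spread. Its levels were 149.4, 179.7 and 181.6 CPM in the controls (170.2 ± 18.1, SD, n = 3) and 167.7 and 168.6 CPM after co-culture (168.2 ± 0.68, SD, n = 2). Both co-cultured values lay within the control range. Its log2 fold change was -0.02 with a 95% interval of -0.24 to 0.20 (edgeR, adjusted p = 0.906). Its sign turned without control replicate 2 (0.025) or 3 (0.034). GAS5 overlaps GAS5-AS1 by 42 exon bases and ZBTB37 by 129, both on the opposite strand, and 1.64% to 2.90% of its reads were on that strand. RC3H1, the nearest tested protein-coding gene on the side of higher coordinates, had a log2 fold change of -0.09 (95% interval -0.27 to 0.09).

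Several other snoRNA host genes were called, and whether they differed from GAS5 was not tested. Of 21 tested, 6 were lower (28.6%) and 1 higher (4.76%), and the median log2 fold change was -0.32. Among all genes tested 15% were lower and 18.4% higher, and among lncRNA genes 15.1% and 5.37%. The share called in either direction, 33.3%, was near the 33.4% of all genes. SNHG10 fell by 0.72 on the log2 scale, SNHG8 by 0.45 and SNHG16 by 0.41. The calls were 11 without control replicate 1, 4 without control replicate 2, 2 without co-cultured replicate 1 and 3 without co-cultured replicate 2. The factors of nonsense-mediated decay moved in both directions, with 2 of 10 higher (20%) and 2 lower (20%) and a median of -0.02. These shares were near those of all genes. UPF3A fell by 0.50, while SMG5 rose by 0.49. None of the 10 snoRNAs named for the introns of GAS5 was matched by name in the annotation, and they were not analysed here.

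TUG1 (chr22:30969245-30979395, plus strand), annotated as an lncRNA with a bidirectional promoter, was lower in co-cultured cells. Its counts were 8543, 7687 and 8610 in the controls against 6218 and 5290 after co-culture. The levels were 454.2, 425 and 440.8 CPM in the controls (440 ± 14.6, SD, n = 3) and 339.9 and 349.4 CPM after co-culture (344.6 ± 6.78, SD, n = 2). The groups were far apart relative to the spread within each. The fitted log2 fold change was -0.35 (SE 0.08, 95% interval -0.53 to -0.18), a ratio of 0.783, and passed edgeR quasi-likelihood testing at an adjusted p of 0.00803. Without co-cultured replicate 1 it was -0.32 (adjusted p = 0.108) and without co-cultured replicate 2 it was -0.37 (adjusted p = 0.0827), each with 1 co-cultured library and a spread taken from the controls alone. The antisense gene AC004542.2 covers 2334 exon bases of TUG1 and had at most 1 count. Without regard to strand, when reads in that overlap fall on 2 genes and are left out, the counts of TUG1 were 6030 to 6716 in the controls against 4040 and 4777 after co-culture.

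MORC2, whose start lies 947 bp from that of TUG1 on the other strand, had 67.7 to 78.3 CPM in the controls against 59.9 and 68.4 CPM after co-culture. Its groups overlapped, and the log2 fold change was -0.17 (95% interval -0.39 to 0.05). SMTN, a cytoskeletal gene on the other side, fell by 1.14 on the log2 scale, from 30.1 to 33.4 CPM in control to 16.3 and 12.6 CPM in co-cultured libraries. TUG1 has been described to bind Polycomb repressive complex 2. Of the 11 subunits of that complex, 0 were higher and 2 lower (18.2%) by edgeR, by DESeq2 and before adjustment, with a median of 0.09. Among all protein-coding genes tested, 25.1% were higher and 15.9% lower. EZH1, a catalytic subunit, fell by 0.77 and MTF2 by 0.34, and PHF19 had -0.23 (adjusted p = 0.188).

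PVT1 (chr8:127794533-128101253, plus strand) was at the floor, with 1, 2 and 1 counts in the controls against 1 and 1 after co-culture. It was not tested, no fold change is given, and a difference was not detectable at this depth.

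**Figure D3:**
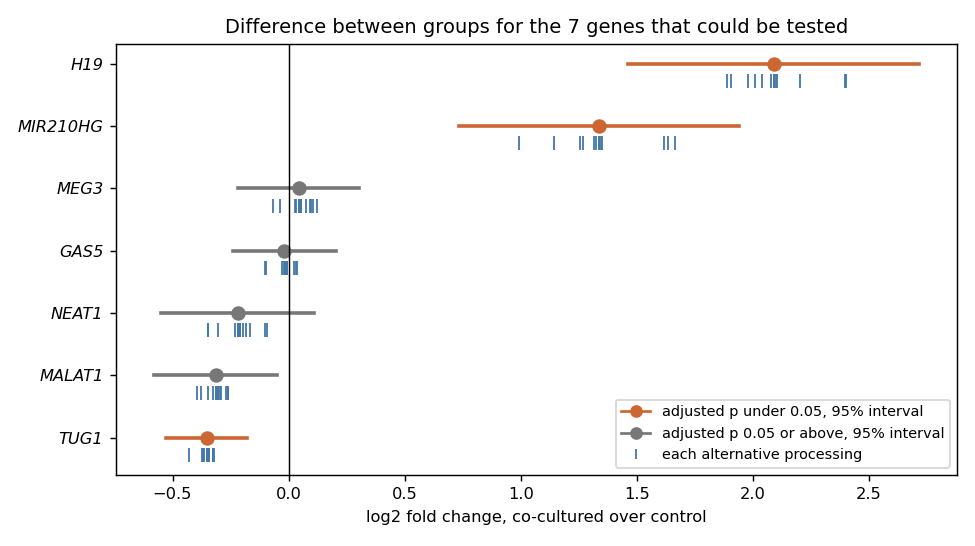
Difference between co-cultured and control libraries on the log2 scale (horizontal axis) for the 7 tested lncRNAs, as the estimate with its 95% interval; orange marks an adjusted p under 0.05, and blue ticks are the values under the alternative processings. H19 and MIR210HG lie to the right of 0, TUG1 at -0.35, and the estimates of MEG3 and GAS5 straddle 0.

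Per kilobase of annotated exon, the levels in control differed widely among the 6 genes with a length. That length joins the exons of all annotated transcripts of a gene. It can exceed the length of the RNA present, so the levels and ranks are approximate. MALAT1 led at 3939 ± 337.1 CPM per kb (SD, n = 3), and it ranked 1st of 3764 lncRNA genes. NEAT1 followed at 69.4 ± 11.9 and ranked 7th. GAS5 at 46.9 ± 4.98 and TUG1 at 43.4 ± 1.44 ranked 12th and 13th, and their libraries overlapped in control. In co-cultured libraries GAS5 had 46.2 and 46.4 CPM per kb and TUG1 33.5 and 34.4, so that they no longer overlapped. MEG3 at 7.04 ± 1.01 ranked 390th and H19 at 0.47 ± 0.16 ranked 3233rd. Of the 23224 exon bases of MEG3, 15272 are shared with AL117190.1, and reads that fall on both genes are left out. The level of MEG3 per kb is thus a lower estimate. After co-culture H19 reached 2.03 ± 0.23 CPM per kb (SD, n = 2), and it remained below MEG3 at 7.26 ± 0.16.

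Among lncRNA genes as a class, more were called lower than higher. Of 3764 tested, 202 were higher (5.37%) and 569 lower (15.1%), and the median log2 fold change was -0.25. Protein-coding genes, 13697 in number, had 3434 higher (25.1%) and 2175 lower (15.9%) and a median of 0.06. Upper-quartile normalization shifted the median of all genes from -0.03 to -0.11 and turned the split of all calls from 3750 higher and 3059 lower to 3076 higher and 3929 lower, while lncRNA genes stayed at 164 higher and 681 lower. Without co-cultured replicate 1 the lncRNA calls were 55 higher and 155 lower, without co-cultured replicate 2 they were 68 and 191, and without control replicate 1 they were 291 and 936, so that the lower side led each time. The share of reads outside exons was lower in both co-cultured libraries, as given above, and its part in the shift of lncRNA genes was not tested.

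Further lncRNAs with names were called on the lower side. Of 30 tested, 12 were lower (40%) and 0 higher by edgeR (12 and 0 by DESeq2, 15 and 1 before adjustment), with a median of -0.27. FIRRE, a nuclear lncRNA of the X chromosome, fell by 0.72 on the log2 scale, SOX2-OT, which overlaps SOX2, by 1.29 and MIAT, a neuronal lncRNA, by 0.82. Before adjustment, LINC00511 was the gene that was higher (0.18, adjusted p = 0.0798). Without control replicate 1, 2 were called higher and 16 lower, and without either co-cultured library 5 were lower. TUG1 was among the 569 lncRNA genes that were lower, and H19 among the 202 that were higher.

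**Figure D4:**
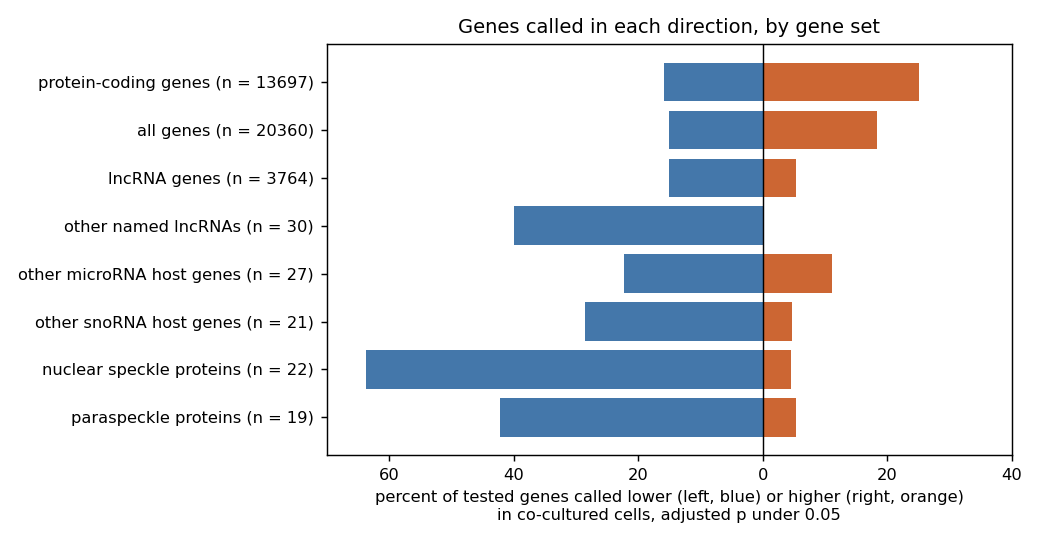
Percent of tested genes called lower (left, blue) or higher (right, orange) in co-cultured cells at an adjusted p under 0.05, with the number tested per set. LncRNA genes lean to the lower side (15.1% against 5.37%) and protein-coding genes to the higher side, and nuclear speckle proteins have 63.6% lower.

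Markers of cell type were set beside these lncRNAs. Of 14 tested neuroendocrine markers, 6 were higher and 3 lower (3 and 0 without co-cultured replicate 1, 4 and 0 without co-cultured replicate 2), and their summed level was 2862 to 3223 CPM in the controls against 3662 and 3694 CPM after co-culture. With all 5 libraries, 42.9% of these markers were higher and 21.4% lower, against 18.4% and 15% of all genes tested. SYP, a synaptic vesicle protein, rose by 0.57 on the log2 scale and SCG2, a secretogranin, by 0.86. The 3 lower markers were STMN2 (-1.12), DDC (-0.58) and DLL3 (-0.35), which were named after their values were seen. Of 9 tested endothelial markers, 2 were higher and 0 lower by edgeR (1 and 0 by DESeq2, 2 and 0 before adjustment, 0 and 0 without co-cultured replicate 1, 1 and 2 without control replicate 3). The share of endothelial markers that were higher, 22.2%, was near the 18.4% of all genes. ESAM rose by 2.15 and ICAM2 by 0.45, and TEK, with the next smallest p, had -1.85 (edgeR, adjusted p = 0.228). The part of these shifts in the levels of MIR210HG, H19 and TUG1 was not tested.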

How the data were processed

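RNA-Seq libraries of NCI-H209 were compared, 3 control and 2 co-cultured. Per the submitters' processing notes, CASAVA 1.8, STAR 2.6.1b, DESeq2 and GRCh38 were used, and the authors deposited raw counts per gene as STAR writes them, without normalization, for 58780 primary and 6057 patch or haplotype entries. The counts of the library strand, which held 92.3% to 93.1% of stranded counts, were used. A deposited table of 32793 genes served only to pair identifiers with names; its means, fold changes and p-values from the authors' own comparison were not used. Positions come from GENCODE 29 and sequences from RefSeq, which held promoters for 7 of the 9 lncRNAs.

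Genes were kept by filterByExpr, normalized by TMM (factors 0.969 to 1.046) and compared with edgeR 4.0.16 in R 4.3.3, by its quasi-likelihood test, with p adjusted by Benjamini-Hochberg for 20360 genes. CPM were computed on TMM-scaled library totals, except the level that equals 3 counts and the summed marker levels, which use unscaled totals. Standard errors were derived from the F statistic of each gene, and the biological coefficient of variation was 10.2%. The smallest p of an exact permutation test in this design is 0.1. In simulated data for this comparison, 165 of 200 changed genes and 20 unchanged genes were called among 20360.

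The lncRNAs and the gene lists were chosen with earlier results of these data known, and the lists were written from general knowledge. Genes named are the 9 lncRNAs, the 3 genes of each list with the smallest p, the nearest tested protein-coding genes, the 3 nearest profiles to MIR210HG and genes that overlap an lncRNA; others are said to be named after their values were seen, as were the genes at or near 0 around MIR210HG and MIR22HG, CHGA and ANKRD37. Some genes that this rule names are not reported here. The alternatives were each library left out, unstranded counts, a replicate block, a filter that kept genes with 1 count or more anywhere, a filter of 10 counts in every library, upper-quartile or median-ratio scaling, and DESeq2 1.42.0. The sum of both MIR210HG entries was added after the data were seen. Plots were drawn with matplotlib 3.10.9.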

Additional observations from a re-analysis of the deposited data

How the results depend on the processing

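H19 kept its call under all 13 alternatives and MIR210HG under 12 of 13, the exception being the fit without co-cultured replicate 1 (adjusted p = 0.0873). The log2 fold change of MIR210HG ran from 0.99 to 1.67 with a library left out and from 1.26 to 1.64 otherwise. With a library left out, 1 to 5 of the lncRNAs were called (1 without co-cultured replicate 1, 5 without control replicate 1), 1 to 2 met the criterion of fold change and unadjusted p, and 2734 to 9897 of all genes, 2 to 12 other microRNA host genes, 2 to 11 other snoRNA host genes and 5 to 18 other named lncRNAs were called. The highest counts of these lists came without control replicate 1 and the lowest without co-cultured replicate 1, tied for the named lncRNAs by co-cultured replicate 2. MEG3 reversed to -0.038 with upper-quartile normalization and ran from -0.067 to 0.121 with a library left out. GAS5 reversed to 0.037 with the replicate block and ran from -0.1 to 0.034 with a library left out. The cause was not tested.

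The replicate numbers are not stated to pair libraries. Deviations from the group means had correlations of -0.11 and -0.07 between same-numbered libraries. With 2 co-cultured libraries the deviations of one mirror those of the other, so these values cannot decide on pairing. The block is therefore not read as a paired analysis. With the replicate block, 2771 genes were higher and 2053 lower, 2 of the lncRNAs were called, 5 other microRNA host genes were called, and TUG1 had -0.35 (adjusted p = 0.0831).

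With upper-quartile normalization MALAT1 had -0.40 (adjusted p = 0.0329), and with the filter of at least 1 count -0.31 (adjusted p = 0.000518). Counts limit H19, IGF2 and PVT1, and without a co-cultured library the remaining one is assumed to vary like the controls. MALAT1 was not called under the other 9 of 13 alternatives (adjusted p = 0.405 with the replicate block).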
